A study of Mus musculus with 2 samples.

Results

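The regions described here are stretches of methylated liver DNA that lie across the 5′ end of a RefSeq transcript. A region was taken when at least 1 of its lines in the longer deposited list gave its relation to a transcript as an overlap with the 5′ end, and each region was counted once. In the Pemt-/- mouse 242 of 97063 regions were of this kind, and in the Pemt+/+ mouse 352 of 131279. They covered the 5′ ends of 262 transcripts of 247 genes in Pemt-/- and of 394 transcripts of 357 genes in Pemt+/+.

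Pemt encodes the enzyme that makes phosphatidylcholine from phosphatidylethanolamine with S-adenosylmethionine as methyl donor, and the study asked whether its loss changes the methylation of liver DNA. Both animals were fed high fat-high sucrose (HFHS) chow, from 5 to 25 weeks of age by the sample records, while the Methods place the sequenced livers in the first weeks of feeding and describe male mice. Methylated DNA was captured with the EpiXplore kit, in which a protein that binds methylated CpG pulls down the DNA, and was sequenced on a Genome Analyzer IIx. The sample records, but not the Methods, mention a bisulphite step before capture, and neither gives the strain or the kind of Pemt-/- allele. There was 1 library for each genotype, from 1 mouse by the sample records, while the Methods speak of several mice per genotype before the capture step. Every comparison is between these 2 libraries and not between the genotypes. No p-value is given, and the 95% Wilson confidence intervals (CI) cover counting error only.

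In mammals most CpG-rich promoters are free of methylation, also in tissues where the gene is silent. Well known exceptions are imprinted genes, at which the copy from one parent is methylated, genes of the germ line, which are methylated at their promoters in somatic cells, and many promoters on the inactive X chromosome. A methylated region over a 5′ end is therefore uncommon, and which genes carry one is of interest in itself. DNA from other cells of the liver is in the libraries too, and a smaller share of cells and less methylation per cell cannot be told apart.

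The 250 bases before the transcript start are shown for 7 genes with such a region, to let the CpG content of different kinds of promoter be seen. Each runs 5′ to 3′ on the strand of the gene, and capitals mark each CG. They come from the RefSeq promoter table for the assembly GRCm38.p6, whereas the regions in the lists are placed on mm9. Dazl, an RNA-binding protein of germ cells, stands for the germline genes and lies at chr17:50293621-50293870 (minus strand). Gnas, which encodes a G protein subunit, and Zrsr1, a splicing factor gene, are imprinted. The Gnas sequence is from chr2:174327499-174327748 (plus strand) and belongs to 1 of 4 starts in the table, which does not show the start that the region covers. The Zrsr1 sequence is from chr11:22971755-22972004 (plus strand). Ard1b, a copy of an N-acetyltransferase gene, is from chr5:97392331-97392580 (minus strand). Apoh, a plasma protein of hepatocytes, is from chr11:108395047-108395296 (plus strand), Cd8a, a co-receptor of T cells, from chr6:71373177-71373426 (plus strand), and Cypt4, a testis gene, from chr9:24624935-24625184 (plus strand).
Dazl: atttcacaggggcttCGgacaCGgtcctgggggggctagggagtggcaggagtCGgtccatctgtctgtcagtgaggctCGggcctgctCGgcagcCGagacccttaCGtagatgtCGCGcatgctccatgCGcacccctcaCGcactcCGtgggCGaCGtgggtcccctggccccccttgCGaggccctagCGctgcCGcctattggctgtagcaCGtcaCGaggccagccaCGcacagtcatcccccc
Gnas: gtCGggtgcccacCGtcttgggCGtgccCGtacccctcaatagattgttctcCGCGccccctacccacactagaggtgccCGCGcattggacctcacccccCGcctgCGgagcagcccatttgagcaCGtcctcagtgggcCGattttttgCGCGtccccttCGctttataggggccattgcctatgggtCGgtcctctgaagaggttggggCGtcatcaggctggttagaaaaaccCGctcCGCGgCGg
Zrsr1: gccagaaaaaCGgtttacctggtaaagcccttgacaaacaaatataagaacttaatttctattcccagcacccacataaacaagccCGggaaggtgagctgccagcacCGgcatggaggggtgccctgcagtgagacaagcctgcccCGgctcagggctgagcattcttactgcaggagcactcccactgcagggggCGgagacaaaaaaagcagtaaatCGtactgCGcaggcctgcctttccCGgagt
Ard1b: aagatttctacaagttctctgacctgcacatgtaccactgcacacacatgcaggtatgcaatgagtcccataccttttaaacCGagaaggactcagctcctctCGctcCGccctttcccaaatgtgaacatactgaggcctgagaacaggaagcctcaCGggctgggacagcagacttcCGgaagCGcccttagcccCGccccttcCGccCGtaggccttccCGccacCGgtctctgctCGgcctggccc
Apoh: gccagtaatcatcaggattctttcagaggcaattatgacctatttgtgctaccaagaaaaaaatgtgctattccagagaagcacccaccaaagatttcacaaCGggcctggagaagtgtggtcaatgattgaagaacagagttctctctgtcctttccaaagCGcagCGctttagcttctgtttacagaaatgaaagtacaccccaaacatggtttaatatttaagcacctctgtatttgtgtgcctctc
Cd8a: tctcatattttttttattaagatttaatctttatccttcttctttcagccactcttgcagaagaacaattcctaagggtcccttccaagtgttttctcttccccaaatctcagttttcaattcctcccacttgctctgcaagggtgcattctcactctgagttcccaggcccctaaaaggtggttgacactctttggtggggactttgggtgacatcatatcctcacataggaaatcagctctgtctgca
Cypt4: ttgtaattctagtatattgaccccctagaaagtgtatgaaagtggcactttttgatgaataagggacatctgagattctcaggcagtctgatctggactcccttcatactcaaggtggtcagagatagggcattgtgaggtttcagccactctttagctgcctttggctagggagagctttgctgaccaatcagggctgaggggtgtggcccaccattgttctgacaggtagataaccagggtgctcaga
The Dazl and Gnas sequences held 20 and 21 CpG. Ard1b held 12, Zrsr1 held 8 and Apoh held 3, while the Cd8a and Cypt4 sequences held none. The listed regions of these 7 genes are wider than the windows, so a region can lie over a start whose own upstream bases have no CpG.

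Regions over 5′ ends made up 0.249% of the Pemt-/- list (95% CI 0.220 to 0.283%) and 0.268% of the Pemt+/+ list (0.242 to 0.298%). Regions over 3′ ends of transcripts were more numerous, with 609 in Pemt-/- and 774 in Pemt+/+. Of the regions over either end, those over 5′ ends were 28.4% in Pemt-/- (95% CI 25.5 to 31.6%) and 31.3% in Pemt+/+ (28.6 to 34.0%). Regions wholly inside a transcript were far more common, 37495 in Pemt-/- (38.6%) and 50945 in Pemt+/+ (38.8%). The few regions that covered a whole transcript, 2 in Pemt-/- and 10 in Pemt+/+, have a relation of their own in the lists and were not taken.

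Regions were also fewer just upstream of the 5′ end than farther away. In Pemt-/- the first 500 bp upstream of transcripts held 214 pairs of a region and a transcript, against 489 pairs in the 500 bp that end at 10 kb. In Pemt+/+ the same bins held 265 and 631 pairs. Pairs also thinned, less strongly, near the 3′ end. In Pemt-/- the first 500 bp downstream held 403 pairs and the next 500 bp 348, against 493 in the bin that ends at 10 kb. In Pemt+/+ these were 573, 464 and 717. Over the 5′ end itself, where a region that touches the end from either side is counted, there were 262 pairs in Pemt-/- and 394 in Pemt+/+. Over 3′ ends there were 713 pairs in Pemt-/- and 911 in Pemt+/+.

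**Figure D1:**
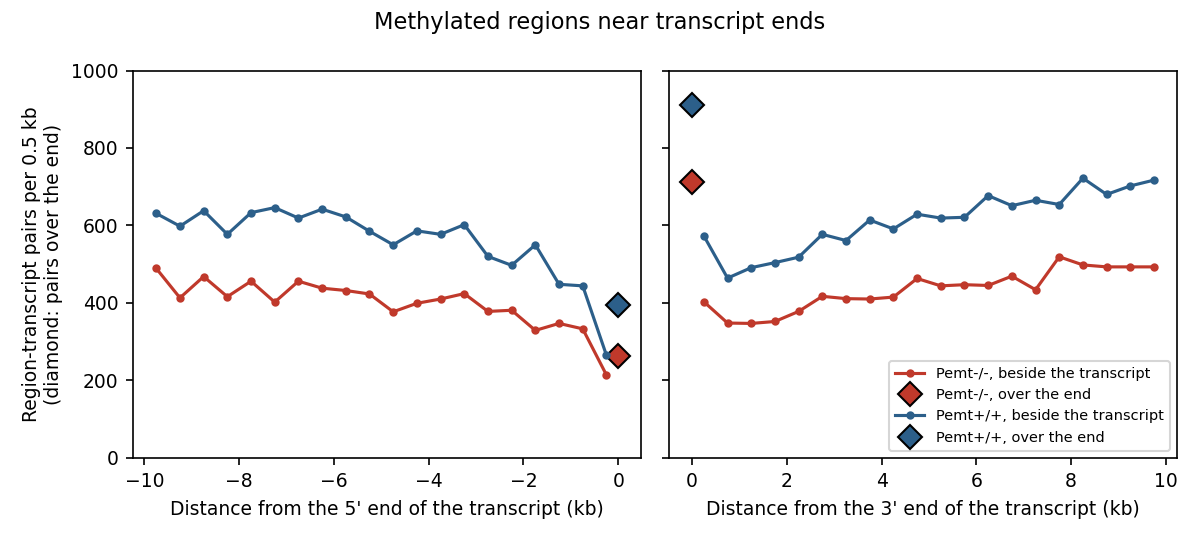
Region-transcript pairs (y axis) by distance in kb from the 5′ end (left) and the 3′ end (right), in bins of 500 bp, for Pemt-/- (red) and Pemt+/+ (blue), 1 library each. Diamonds give pairs over the end itself, 262 and 394 at the 5′ end and 713 and 911 at the 3′ end, and the lines fall towards the 5′ end to 214 and 265 pairs.

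Regions over 5′ ends were wider than the average region and a little richer in tags, the sequenced reads counted in a region. Their median width was 553 bp in both mice, against 421 bp for all regions of Pemt-/- and 423 bp for those of Pemt+/+, and a wider region is more likely to touch an end. The median number of tags was 16 in Pemt-/- and 20 in Pemt+/+, against 13 and 17 for all regions, and 16 and 21 for regions over 3′ ends. Fold enrichment over the background was close to that of all regions, with medians of 16.4 and 16.1 against 16.9 and 16.5. Together they held 6150 tags in Pemt-/-, 0.389% of the tags in listed regions, and 11352 tags in Pemt+/+, 0.399%.

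Where within a region the 5′ end lay could be worked out for 112 of the 242 regions in Pemt-/- and 161 of the 352 in Pemt+/+, from other regions that the lists place upstream of the same transcript. A median of 37.9% of the region was upstream of the start in Pemt-/- and 32.3% in Pemt+/+. The summit, the point of highest pile-up, was a median of 37.5 bp downstream of the start in Pemt-/- and 75 bp in Pemt+/+. It was downstream in 58.9% of these regions in Pemt-/- (95% CI 49.7 to 67.6%) and in 66.5% in Pemt+/+ (58.9 to 73.3%).

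The X chromosome held a larger share of these regions than of all regions in both mice. It carried 21 of the 242 in Pemt-/- (8.68%, 95% CI 5.75 to 12.9%) and 31 of the 352 in Pemt+/+ (8.81%, 6.27 to 12.2%). Of all regions only 1.11% in Pemt-/- and 1.30% in Pemt+/+ were on the X chromosome, and of regions over 3′ ends 0.657% and 0.646%. Xist, the RNA gene that silences the inactive X chromosome in females and is itself silent in males, had a region with 79 tags in Pemt-/- (chrX:100677121-100678900) and 153 tags in Pemt+/+ (chrX:100676407-100679159). Others on the X chromosome were the germ cell genes Taf7l and Tex11, described below, and several members of the Rhox homeobox cluster, which is expressed in reproductive tissues. Of the 22 Rhox genes with any region listed, 8 (36.4%) had one over a 5′ end in either mouse, beside 2.82% of all genes with any region. They had 9 to 19 tags in Pemt-/- and 9 to 32 in Pemt+/+. Rhox4a, Rhox4e, Rhox4f and Rhox4g are among the 8. The Rhox4 genes are near-identical copies, so the assignment of reads among them is uncertain and they are not separate observations.

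Most 5′ end regions of Pemt-/- had a counterpart in Pemt+/+, and fewer the other way round. By an overlap of at least 1 bp, 217 of the 242 Pemt-/- regions (89.7%, 95% CI 85.2 to 92.9%) met a Pemt+/+ region and 25 did not. Of all Pemt-/- regions 16.7% met none, against 10.3% of the 5′ end regions, which had more tags. Of the 352 Pemt+/+ regions 228 met a Pemt-/- region (64.8%, 95% CI 59.6 to 69.6%) and 124 did not. Those 124 were 35.2%, near the 38.4% of all Pemt+/+ regions.

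Finding a counterpart depended strongly on the number of tags. Of the Pemt+/+ 5′ end regions with 11 to 15 tags, 39 of 90 (43.3%) were found in Pemt-/-, and of those with 31 tags or more, 98 of 107 (91.6%, 95% CI 84.8 to 95.5%). All Pemt+/+ regions gave 42.4% and 95.6% in the same bins. With 21 to 30 tags the 5′ end regions were below all regions, 48 of 68 (70.6%, 95% CI 58.9 to 80.1%) against 82.0%. In Pemt-/- the 5′ end regions were close to all regions at most tag numbers. With 11 to 15 tags 85.1% were found in Pemt+/+, beside 84.3% of all Pemt-/- regions. With 16 to 20 tags it was 97.7% beside 94.7%, and with 21 to 30 tags 97.3% beside 98.3%. All 44 Pemt-/- 5′ end regions with 31 tags or more were found in Pemt+/+, beside 99.5% of all. The Pemt+/+ list was the longer one. With the lists reduced to equal size by score, 80.6% of the Pemt-/- and 75.5% of the Pemt+/+ 5′ end regions had a counterpart.

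By gene, 196 had a region over a 5′ end in both mice, which is 79.4% of the 247 genes in Pemt-/- and 54.9% of the 357 in Pemt+/+. A further 51 genes were listed in Pemt-/- alone, but for 26 of them the region overlapped a Pemt+/+ region that the list did not give as overlapping the 5′ end of that gene. Of the 161 genes listed in Pemt+/+ alone, 35 had such an overlap. Such a region can stop short of the 5′ end, or can span it and be given another relation, such as covering the whole of a short transcript.

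Where a region of one list overlapped exactly 1 of the other, tags were compared in pairs, 239 of which had a 5′ end region in at least one mouse. Dividing tags of Pemt-/- by those of Pemt+/+ gave a median of 0.667 (95% CI of the median 0.632 to 0.70). Over all 79393 pairs the median was 0.682, so the lower tag number in Pemt-/- was general to the lists. Relative to that median, 19 pairs (7.95%) were over 1.5 times higher in Pemt-/-, where the background was 10.4%. At the other side, 26 pairs (10.9%) were under 1/1.5 of the median, where the background was also 10.9%. A pair could be taken through a single mouse, where its region reached the 5′ end, and this can shift its ratio. In the 184 pairs with a 5′ end region in both mice, the median was 0.673, with 8.70% over and 9.24% under. Of the 100 of these with at least 40 tags, 1% were over and 13% under. Among the 135 pairs with at least 40 tags in both mice together, 2 were over (1.48%) and 19 were under (14.1%). Of all pairs with as many tags 5.35% were over and 14.9% under, and the medians were 0.615 for 5′ end pairs and 0.625 for all.

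The pairs at the ends of this range were named by rule among the 135 with at least 40 tags. In these, tags were most in favour of Pemt-/- at Gpr151, an orphan receptor of the brain, with 22 tags in Pemt-/- and 19 in Pemt+/+, and at the urea transporter gene Slc14a2, with 24 and 23. Ard1b had 23 tags in each mouse, and Gkn2, which encodes a secreted protein of the stomach, 32 in each. The lens crystallin gene Cryge had 25 and 26. All 5 pairs lay close to equal numbers, which is above the median ratio of 0.682 of all pairs. Divided by that median, Gpr151 was at 1.70 and Slc14a2 at 1.53.

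At the other end stood imprinted Zrsr1, with 23 tags in Pemt-/- and 94 in Pemt+/+. The Pemt+/+ region spanned chr11:22871875-22874187 and the Pemt-/- region only chr11:22873604-22874151, which did not reach the 5′ end. The myosin gene Myo18a had 14 and 53 tags, and Slfn4, a gene of the Schlafen family in myeloid cells, 11 and 38. Aox4, an aldehyde oxidase gene, had 23 and 77, and the spermatid kinase gene Tssk2 18 and 52. At Zrsr1, Myo18a and Aox4 the region was wider in Pemt+/+ and reached the 5′ end there alone, so these pairs were taken through Pemt+/+ only.

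**Figure D2:**
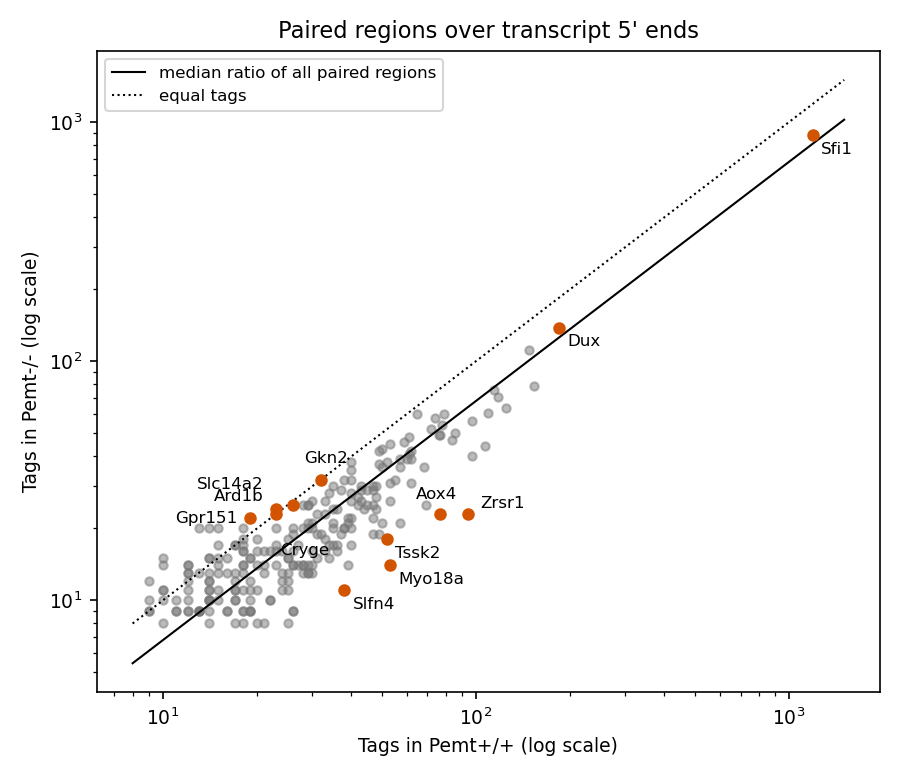
Tags in Pemt+/+ (x axis, log scale) and Pemt-/- (y axis, log scale) for the 239 one-to-one pairs with a 5′ end region in at least one mouse, each point 1 pair. The solid line is the median ratio of all pairs, 0.682, and orange points are named pairs, among which Zrsr1, Aox4, Myo18a, Slfn4 and Tssk2 lie far below the line.

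The regions that led by score in both mice, those of Sfi1, Dux and the Cypt family, were over genes that exist in several near-identical copies. Sfi1, which encodes a centrosome protein, had 880 tags in Pemt-/- and 1190 in Pemt+/+, and Dux, a homeobox gene in a tandem repeat, 138 and 184. A region with 56 tags in Pemt-/- and 97 in Pemt+/+ lay over genes of the Cypt family, testis genes named for a cysteine-rich protein, and was assigned to Cypt9 and Cypt10 in Pemt-/- and to Cypt4 in Pemt+/+. Reads of such copies can be misplaced, and values for Sfi1, Dux and the Cypt genes are uncertain. The remaining leaders were Pabpc2, an intronless copy of a poly(A)-binding protein gene, with 111 tags in Pemt-/- and 148 in the Pemt+/+ region that met it. The clone-named gene 1700071K01Rik had 52 and 72. Ldhal6b, a testis lactate dehydrogenase gene, had 121 tags in Pemt+/+ and 60 in Pemt-/-. Dnajb7, a chaperone gene whose region lay inside Xpnpep3, had 74 tags in Pemt+/+ and 58 in the Pemt-/- region that met it.

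Of the 5′ end regions with no counterpart, the highest scores in Pemt-/- belonged to Slco6b1, an organic anion transporter of the testis, with 14 tags, to the peptide hormone gene Uts2d with 16, and to the sperm surface gene Adam1b with 11. In Pemt+/+ they belonged to the Prame family gene Pramef12 with 28 tags, to 4931417E11Rik with 38, and to the muscle glycogen phosphorylase gene Pygm with 28. The Pemt-/- numbers are near the smallest in its list, 8 tags, and such regions are the ones least often shared.

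How the shorter deposited list of each mouse differs from the longer one is not given in the sources used here, and its values are described only. In Pemt-/- 4 of the 242 (1.65%) overlapped it, against 2.13% of all Pemt-/- regions, and in Pemt+/+ 19 of the 352 (5.40%), against 4.59% of all. The 4 in Pemt-/- were Oaz3, a testis inhibitor of ornithine decarboxylase, Cd96, Uts2d and Adam1b, with 10 to 16 tags. Their false discovery rate in that list was 100%. The shorter Pemt+/+ list itself had 20 regions over 5′ ends, led by the mitochondrial deacylase gene Sirt5 with 45 tags, Pygm with 28 and the germline gene Tex11 with 45. Their false discovery rates were 25, 22.7 and 30.2%. Tlr6, a receptor for microbial lipopeptides, was also there, with 97 tags, and a Pemt-/- region of 40 tags in the longer list overlapped it.

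Among protein-coding genes of the RefSeq gene table, 218 (0.996%) had a 5′ end region in Pemt-/-, 325 (1.48%) in Pemt+/+, 370 (1.69%) in either mouse and 173 (0.79%) in both. Gene lists, 14 in number, were chosen with earlier results of these data known, so their shares are a description and not a test. Of these lists, those of germline and imprinted genes had the highest shares in either mouse. The germline list had 10 of 30 genes in Pemt-/-, 14 in Pemt+/+ and 16 in either mouse (53.3%, 95% CI 36.1 to 69.8%). The imprinted list had 4 of 32 in Pemt-/- and 9 in Pemt+/+ (28.1%, 95% CI 15.6 to 45.4%).

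**Figure D3:**
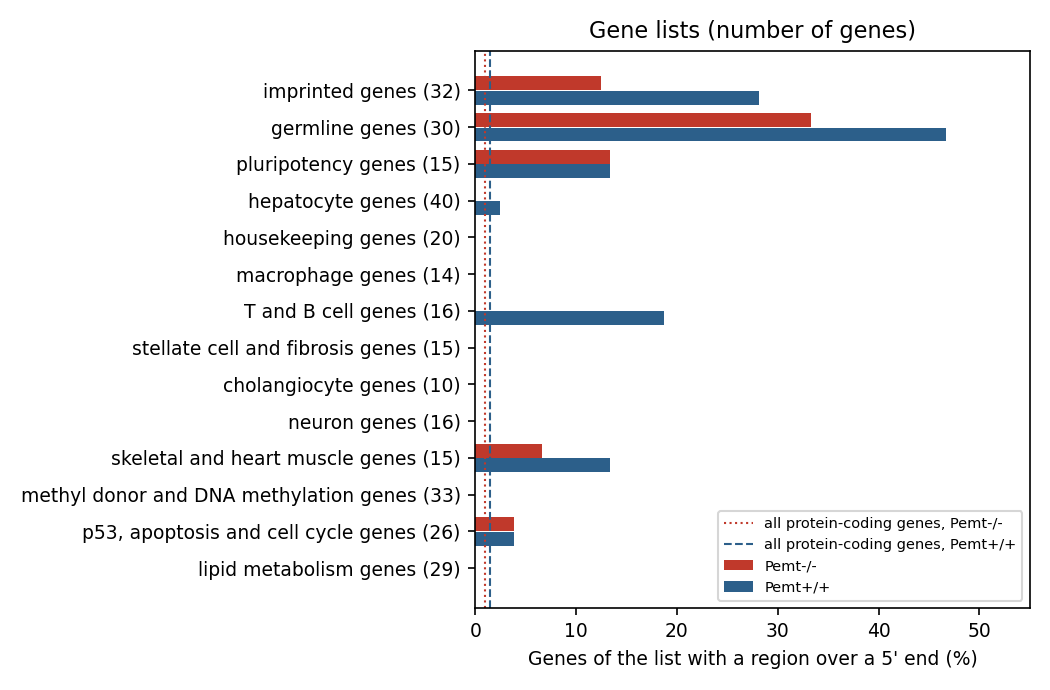
Share of each list's genes (x axis, %) with a region over a 5′ end in Pemt-/- (red bars) and Pemt+/+ (blue bars), with the number of genes in parentheses. Vertical lines give all protein-coding genes, 0.996% and 1.48%. The germline list lies farthest to their right, every bar shown passes the line of its mouse, and 7 lists have no bar. In Pemt-/- the pluripotency list (13.3%) is above the imprinted list (12.5%).

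Germline genes carried 5′ end regions in both mice at Dazl, Hormad1, Sycp1, Taf7l, Mov10l1, Tex19.1, Brdt and Tex101. Dazl had 52 tags in Pemt-/- and 69 in Pemt+/+. Hormad1 and Sycp1, proteins of the meiotic chromosome axis and synapsis, had 31 and 62 and 42 and 49 tags. Taf7l, a transcription factor subunit of germ cells, had 37 and 49. All 8 genes act in germ cells, and each had the lower number of tags in Pemt-/-. Mov10l1, an RNA helicase of the piRNA pathway, had 16 and 36 tags, Tex19.1 16 and 30, the bromodomain gene Brdt 20 and 23, and Tex101 14 and 15.

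The remaining 8 germline genes were listed at the 5′ end in a single mouse. In Pemt+/+ these were Tex11 (45 tags), the piRNA gene Piwil2 (40), the meiotic cohesin gene Stag3 (29), Tex14 (29), the helicase gene Ddx4 (13) and Sycp2 (13). Tex11, Tex14, Ddx4 and Sycp2 met no Pemt-/- region, which makes 4 of the 14 germline regions of Pemt+/+, against 38.4% of all its regions. By contrast, a Pemt-/- region of 22 tags overlapped that of Piwil2 and one of 21 tags that of Stag3. In Pemt-/- they were the dipeptidase gene Dpep3 (30 tags, no Pemt+/+ counterpart) and the piRNA gene Mael (15 tags, over a Pemt+/+ region of 25). It was thus not always the library with more tags that listed the region.

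All 4 imprinted genes of Pemt-/- were also found in Pemt+/+. The retrotransposon-derived gene Peg10 had 64 tags in Pemt-/- (chr6:4697304-4698773) and 125 in Pemt+/+ (chr6:4697228-4698830). Mcts2, a gene made by retroposition, had 54 and 78. Nnat, a membrane proteolipid gene inside Blcap, had 39 and 62. At Gnas the Pemt-/- region of 49 tags and the Pemt+/+ region of 76 tags overlapped, and both lay inside the antisense transcript Nespas. The 4 regions were 1114 to 1821 bp wide in Pemt-/-, above the median width of 553 bp for 5′ end regions.

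Of all Pemt+/+ regions, of any number of tags, 38.4% met no Pemt-/- region. Pemt+/+ had 10 regions over imprinted 5′ ends, and 5 of them met no Pemt-/- region. They were a further Gnas region of 71 tags (chr2:174122314-174123718), the regions of Nap1l5 (42 tags, chr6:58856419-58857551) inside Herc3, of the amino acid transporter gene Slc38a4 (39 tags), of Snrpn and Snurf (22 tags), and of the receptor gene Igf2r (9 tags). Slc38a4 was in the shorter Pemt+/+ list as well. The Gnas, Nap1l5 and Slc38a4 regions had 39 tags or more. With 31 tags or more, 95.6% of all Pemt+/+ regions and 91.6% of its 5′ end regions had a counterpart, so lacking one was uncommon at like tags. Those 107 5′ end regions include these imprinted ones. The lack was not particular to imprinted genes, as the Pemt+/+ regions of Ankrd50 (95 tags), Tex11 (45) and 4931417E11Rik (38) met no Pemt-/- region either. Zrsr1, inside Commd1, is the remaining gene listed at the 5′ end in Pemt+/+ alone. The lists give no tags outside called regions, and whether tags below the caller's threshold lay at these places in Pemt-/- was not tested.

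**Figure D4:**
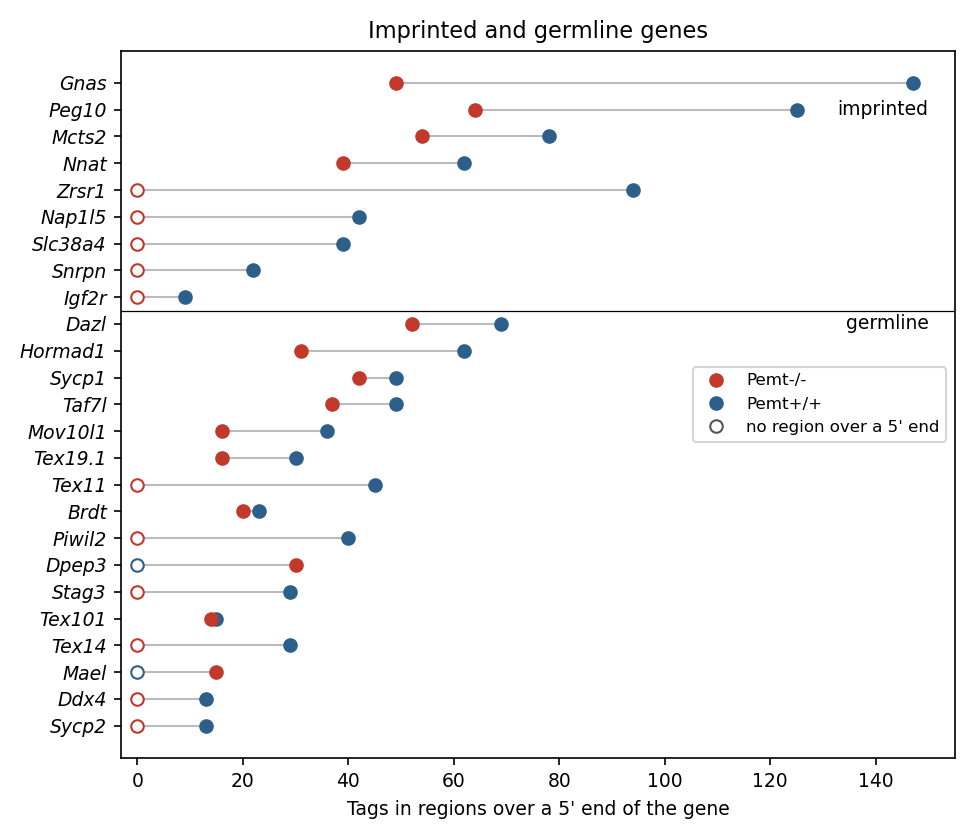
Tags in regions over a 5′ end (x axis) for each imprinted gene (top) and germline gene (bottom) with such a region, in Pemt-/- (red) and Pemt+/+ (blue), 1 library each. Open points at 0 mean that no region over the 5′ end was listed, and for Gnas in Pemt+/+ the 76 and 71 tags of both regions are summed to 147.

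In the other lists the counts were small, against a background of 1.69% of protein-coding genes in either mouse. Of 15 pluripotency genes, 2 (13.3%) had regions in both mice, the co-receptor gene Tdgf1 with 44 tags in Pemt-/- and 107 in Pemt+/+ and Dppa5a with 25 and 29. Of 40 hepatocyte genes, which should be expressed in this tissue, 1 (2.5%) had a region, Apoh, with 9 tags in Pemt+/+ alone. Of 16 T and B cell genes, 3 (18.8%, 95% CI 6.59 to 43.0%) had a region in Pemt+/+ alone. Cd8a had 47 tags there, over a Pemt-/- region of 22 tags that did not reach the 5′ end, Cd79b had 11 and Cd4 had 9. Of 15 muscle genes, 2 (13.3%) had a region, the giant sarcomere gene Ttn with 13 tags in each mouse and the myosin gene Myh2 with 33 in Pemt+/+. Of 26 genes of the p53 pathway, apoptosis and cell cycle, the caspase gene Casp8 had 9 and 16 tags.

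No region over a 5′ end was listed in either mouse for any of 20 housekeeping, 14 macrophage, 15 stellate cell, 10 cholangiocyte, 16 neuron, 33 methyl donor and DNA methylation or 29 lipid metabolism genes. At the 1.69% of all protein-coding genes, lists of this size would be near 0 as well, so these counts set no list apart. Pemt, Fbxo31, whose protein takes part in cyclin D1 degradation, and Hnf4a, a master regulator of hepatocytes, had none either. At Fbxo31 the nearest upstream region was 5463 bp away in Pemt-/- and 5392 bp in Pemt+/+. At Hnf4a it was 1170 bp away in Pemt-/-, and none was listed within 10 kb upstream in Pemt+/+. Inside the transcript, Pemt had 2 regions in each mouse, Fbxo31 had 4 in Pemt-/- and 3 in Pemt+/+, and Hnf4a had 1 in each. The paper reports more methylation of Fbxo31 and Hnf4a in Pemt-/- mice, and its main text does not place this at the 5′ ends. Methylated regions do not show whether Pemt is intact, so they did not check the genotype labels.

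Gene names outside the lists, looked at after the values were seen, included many of testis origin. Genes that bear the name of a RIKEN clone carry the code of the clone library, and codes of adult testis libraries made up 23 of 29 such genes with a 5′ end region (79.3%, 95% CI 61.6 to 90.2%). Among all 872 such genes with any region in either list they were 265 (30.4%). Of the 8 Cypt genes with a region, 7 had one over a 5′ end, and of the 15 Tex genes 7. The 7 Cypt genes are not separate observations. Cypt6, Cypt7 and Cypt8 shared a single region, and the region of Cypt9 and Cypt10 in Pemt-/- was that of Cypt4 in Pemt+/+. Olfactory receptor genes, a far larger family, had 11 of 387 (2.84%), beside 2.82% of all 14480 genes with any region. Keratin genes had 6 of 42, among them Krt28 with 31 tags in Pemt-/- and 53 in Pemt+/+ and Krt4 with 25 and 29.

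A few other genes with regions in both mice, chosen after their values were seen and not meant to represent the rest, are known from other tissues. The meiosis gene Stra8 had 20 tags in Pemt-/- and 28 in Pemt+/+. The intronless testis copies Tktl2 of a transketolase gene and Prps1l1 of a phosphoribosyl pyrophosphate synthetase gene had 76 and 114 and 46 and 59. The photoreceptor gene Prph2 had 19 and 49. The T cell inhibitory receptor gene Ctla4 had 20 and 38. Each of these had the lower number in Pemt-/-, as had the lists as a whole.

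Genes with a 5′ end region were most frequent where the promoter entry had intermediate CpG content. Content was taken as the observed over expected CpG ratio in the 250 bases before and 50 after the start, for 292 of 357 such protein-coding genes (81.8%) and 17491 of 21386 in all (81.8%), outside chromosome 18, for which the table has no entries. Only the first entry of each gene was used, and 61 genes with a 5′ end region had several. The window is therefore not always at the start that the region covers, a limit for all promoter values here and below. The share of genes with a region in either mouse rose from 0.509% at ratios under 0.1 to 5.95% (61 of 1026, 95% CI 4.66 to 7.56%) at ratios of 0.4 to 0.5. It fell to 0.665% (13 of 1956) at 0.8 to 0.9. By customary classes it was 1.91% under 0.48, 2.55% (95% CI 2.10 to 3.09%) from 0.48 to 0.75 and 0.791% (0.595 to 1.05%) above. At the lowest ratios, few CpG to capture and little methylation cannot be told apart.

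**Figure D5:**
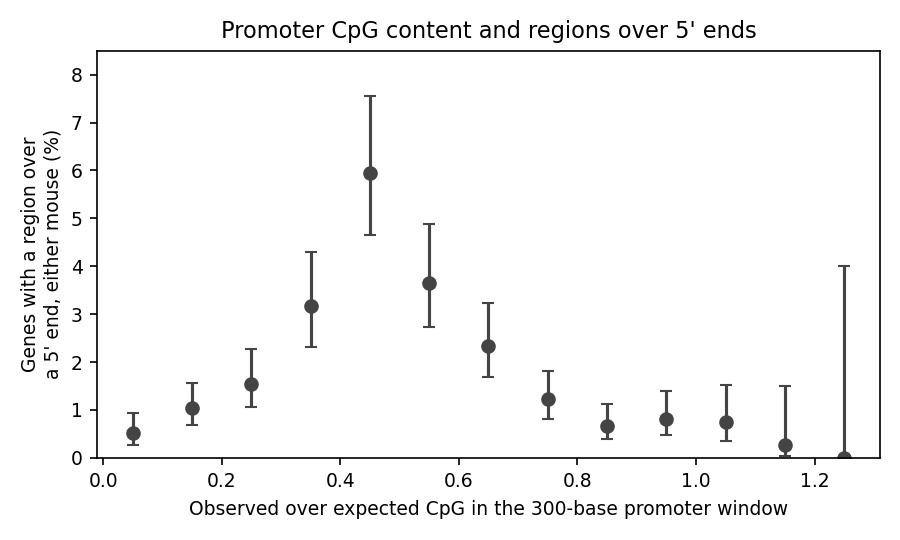
Share of protein-coding genes with a region over a 5′ end in either mouse (y axis, %) by the observed over expected CpG ratio of the gene's first promoter entry (x axis, bins of 0.1), with 95% Wilson intervals. The share is highest, 5.95%, at ratios of 0.4 to 0.5 and under 1% at the lowest ratios and from 0.8 up.

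Germline promoters had more CpG than this. It was 0.733 over the 25 germline genes with a sequence and 0.593 over 26 imprinted genes, against 0.576 over all 17491 protein-coding genes. Across the lists the medians ran from 0.182 for macrophage genes to 0.825 for housekeeping genes. Genes of the p53 pathway, apoptosis and cell cycle had 0.771, and 30 hepatocyte genes 0.240. In the Dazl sequence above the ratio was 0.710 and in the Gnas sequence 0.848. The 6-base E-box CACGTG, searched on both strands, was in 8 of 14 promoters of germline genes with a 5′ end region (57.1%, 95% CI 32.6 to 78.6%). It was in 33 of 292 promoters with such a region (11.3%, 95% CI 8.16 to 15.4%), the 8 germline ones among them, and in 7.90% of all 17491. Among promoters with a ratio above 0.75 it was in 14 of 47 with a region (29.8%, 95% CI 18.7 to 44.0%) and in 12.0% of all 5942. Germline promoters, such as those of Sycp1 and Taf7l, are among the 47 too, so these shares are not independent of the germline one. GCGGGAA (reverse complement TTCCCGC), the letters of an E2F site, was in 4 of the 14 germline promoters, in 13 of 292 promoters with a region (4.45%) and in 5.99% of all, or 11.3% of all with a ratio above 0.75. TGACGTCA, the letters of a cAMP response element, was in none of the 14 and in 2.34% of all. TATAAA (reverse complement TTTATA) was in 19.2% of promoters with a region and in 13.3% of all. These are matches of letters, not sites shown to be bound.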

How the data were processed

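Liver DNA was enriched for methylation and sequenced in 1 Pemt-/- and 1 Pemt+/+ library, each from 1 mouse by the sample records, although the Methods give several mice per genotype. The submitters' processing notes name CASAVA version 1.8.2, Bowtie and the build mm9. The caller's version and settings, the control and the handling of duplicate reads are not given in the sources used here, and each can change tag numbers. The region names are those of MACS. Tags are deposited as raw counts of reads per region, fold enrichment as a ratio over the background, p-values as a score, namely −log10 of the p-value multiplied by 10 (lowest score 50, a p-value of 1e-05), and the FDR as a percent by the authors. The sum of tags over listed regions was 1582080 for Pemt-/- and 2847831 for Pemt+/+. Library totals were not used here.

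Each region was counted once. Overlaps (bedtools version 2.31.1) needed 1 bp. Python version 3.11.15, pandas version 2.3.3, numpy version 2.4.6, scipy version 1.17.1 and matplotlib version 3.10.9 were used, and the overlap and pairing steps were tested on simulated data. Gene identifiers in the lists were matched to the RefSeq gene table for 401 of 408 genes, and all 312 names in the lists matched, of which an older and a newer name of a macrophage gene were counted once. The members and lists were chosen with earlier results of these data known. The genes named were, per mouse, the 5 highest scores, the 3 highest without a counterpart and the 3 highest of the shorter list, the 5 highest and 5 lowest ratios of pairs with at least 40 tags, up to 4 genes per list with the most tags, and Pemt, Fbxo31 and Hnf4a. Further germline and imprinted genes, the other 2 regions of the shorter lists that are named and the gene families were chosen after their values were seen, as was leaving chromosome 18 out of the CpG comparison. Promoters were to be shown for up to 10 genes, and those without an entry are left out. Alternatives were the upper 50% by score, lists of equal size, regions with every relation at the 5′ end, coding transcripts, autosomes, an overlap of 50% of both regions, pairs with at least 40 tags, and the 250 bases before the start alone.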

Additional observations from a re-analysis of the deposited data

How the results depend on the processing

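Of 145 values recomputed, 109 stayed within their interval or within 1.5 times the count. Part of these could not move, so the number is no measure of robustness. Equal list sizes left the Pemt-/- list as it was, and the shorter lists were not cut by score or size. Gene lists without a member also stayed at 0 in any subset of regions. In the upper 50% by score there were 133 regions over 5′ ends in Pemt-/- and 200 in Pemt+/+ (0.305% of the list), with medians of 24 and 31 tags, 136 and 204 genes, 107 of them in both mice. There the median ratio of all pairs was 0.667 and the median CpG ratio of promoters 0.545. With lists of equal size a counterpart was found for 80.6% in Pemt-/- and 75.5% in Pemt+/+, the Pemt+/+ median was 26 tags and the ratio of all pairs 0.65. Keeping regions whose every relation was with a 5′ end left 141 in Pemt-/- (0.145%) and 210 in Pemt+/+ (0.160%), 145 and 216 genes, 114 in both, and 13 in the shorter Pemt+/+ list, by construction. An overlap of 50% of both regions gave 84.7% for Pemt-/-. Pairs with at least 40 tags gave ratios of 0.615 for 5′ end pairs and 0.625 for all. Other causes of these moves were not tested. Coding transcripts, autosomes and the shorter promoter window moved no main value.

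No paired analysis was possible because there was 1 library of each genotype, which also leaves no replicate to drop. Sharing was lowest at few tags: 5′ end regions of 8 to 10 tags were found in the other mouse in 72.7% of cases for Pemt-/- and 25.8% for Pemt+/+, beside 64.5% and 26.1% of all regions with as many tags.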
